A study of Homo sapiens with 6 samples.

Results

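The genes of G2/M and the mitotic spindle were followed in MV4-11 cells with and without a hairpin against PRMT5. The set holds 40 genes chosen by symbol: mitotic cyclins and kinases, checkpoint and kinetochore components, kinesins and other proteins of the spindle and of cytokinesis. All 40 were found among the 23698 gene rows of each deposited table, and all 40 passed the filter on low counts that left 13668 genes for testing. MV4-11, an established line, was derived from an acute myeloid leukaemia, and its FLT3 gene has an internal tandem duplication. The knockdown group was 3 poly(A) RNA-seq libraries of cells stably transduced by lentivirus with a short hairpin RNA against PRMT5, an arginine methyltransferase, and the control group was 3 libraries of cells transduced the same way with a scrambled hairpin. Both groups are transduced cells. The labels do not say whether the libraries of a group came from separate cultures, so p-values measure only the spread between these libraries.

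Cells enter mitosis when CDK1, bound to cyclin A or cyclin B, is switched on by CDC25 phosphatases. Kinases of the Aurora, Polo and NEK families then act on centrosomes, kinetochores and the spindle, and the checkpoint holds back the anaphase-promoting complex until the chromosomes are attached. Many of these genes are transcribed late in the cell cycle under FOXM1 and the MuvB complex, and their mRNAs are therefore abundant in cycling cells and scarce in resting ones. In a bulk library, a smaller share of cells in G2/M and less of each mRNA per cell cannot be told apart.

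Library totals were 16408484 to 19077106 estimated counts. PRMT5 itself was at 103, 71.6 and 52.99 CPM (counts scaled to library size with TMM factors) in knockdown 1 to 3. It was at 133, 53.2 and 158 CPM in the libraries labelled scrambled control 1 to 3. Knockdown minus control, the edgeR fit gave PRMT5 a log2 difference of −0.60 with an SE of 0.43 and an adjusted p of 0.926 (95% confidence interval −1.60 to 0.41), and −0.94 when the library labelled scrambled control 2 was left out. PRMT5 in that library lies at the level of the knockdown group, against its label, so list counts, and the differences that moved most, are also given without it. Among the 12 myeloid and line markers it held the least LYZ and MPO, genes of myeloid granules, at 35.3 and 13.8 CPM, where the other 5 libraries had at least 430 and 56.6 CPM. It held the most HOXA9 and MEIS1, homeobox genes, at 296 and 102 CPM, where the other 5 had at most 96.2 and 32.9 CPM. It also held the most PTPRC, CD4, CD68 and ITGAM, at 380, 262, 139 and 115 CPM. The other 5 had at most 344, 214, 109 and 85.2 CPM of these. SPI1 was lowest there too, at 121 CPM, where the other 5 had at least 127 CPM. CD33, FLT3 and CSF1R lay within the range of the other 5. Of the 12 markers 5 were below the mean of controls 1 and 3 there, with a median log2 difference of 0.31. All 12 of these markers, among them CD33, FLT3 and SPI1, were above 1 CPM on average, and they summed to 1592 to 2689 CPM under the PRMT5 hairpin and 1958 to 2474 CPM under the scrambled one. Of the markers of other lineages, 5 T lymphocyte and 6 erythroid genes summed to at most 1.09 and 0.486 CPM under the PRMT5 hairpin and 0.454 and 1.17 CPM under the scrambled one, CD2, CD3E and HBB being at 0 in all 6 libraries. B lymphocyte genes summed to 12.8 to 13.8 CPM under the PRMT5 hairpin and 7.52 to 16.1 CPM under the scrambled one, most of it PAX5. Epithelial and fibroblast genes summed to 17.4 to 29.1 CPM under the PRMT5 hairpin and 15.5 to 59.3 CPM under the scrambled one, most of it KRT8 and KRT18, with EPCAM, COL1A2 and COL3A1 at 0 throughout. The value of 59.3 CPM was in the library labelled scrambled control 2. The part of these differences in the results was not tested.

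None of the 40 genes passed the test of knockdown against control after correction, and none had an unadjusted p under 0.05. In the edgeR quasi-likelihood fit 0 of 13668 genes were called at an adjusted p under 0.05, a share of 0%, and 242 genes, or 1.77%, had an unadjusted p under 0.05. DESeq2 and limma-voom also called 0 genes, with 461 and 117 at an unadjusted p under 0.05. The fitted log2 difference of knockdown minus control was below 0 for 38 of the 40 genes, against 50.1% of all tested genes. Its median was −0.22 over the 40 genes and −0.00069 over all tested genes, and it ran from −0.74 for NEK2 to 0.18 for FOXM1. The SE of a single gene's difference was 0.23 to 0.66 and every 95% interval included 0. Only KIF18A had all 3 knockdown libraries below all 3 controls, where 3.1% of tested genes did. The 40 levels moved together across libraries: the median Pearson r over 780 gene pairs was 0.82 across 6 libraries that share their scaling. The count of 38 is therefore not 38 separate measurements. The median r over pairs of other tested genes was not computed.

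The median depended on which libraries entered. When the library labelled scrambled control 2 was left out, all 40 log2 differences were below 0, with a median of −0.46, where 49.6% of all tested genes were below 0. All 3 knockdown libraries then lay below both remaining controls for 5 of the 40 genes (NDC80, TOP2A, CDC25C, KIF18A and HMMR), against 4.79% of tested genes. No gene was called there either, the smallest adjusted p of the 40 being 1.00 in edgeR. Single differences moved with it: CCNB1 and PLK1 were at −0.73, MKI67 at −0.60, CENPF at −0.56, CDC20 and CDK1 at −0.43 and NUSAP1 at −0.36 in that fit. Leaving out knockdown 3 instead put both remaining knockdown libraries below all controls for 16 of the 40 genes, against 10.4% of tested genes. In that fit 9 of the 40 were lower at an unadjusted p under 0.05 in edgeR, against 1.34% of tested genes, and none was called. Leaving out both libraries numbered 2 put both remaining knockdown libraries below both remaining controls for 6 of the 40 genes, against 9.8% of tested genes. The median was −0.62 without knockdown 3, −0.14 without knockdown 1, −0.061 without knockdown 2 and −0.17 without scrambled control 1. Without scrambled control 3 it was 0.017, with 20 of 40 genes below 0.

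**Figure D1:**
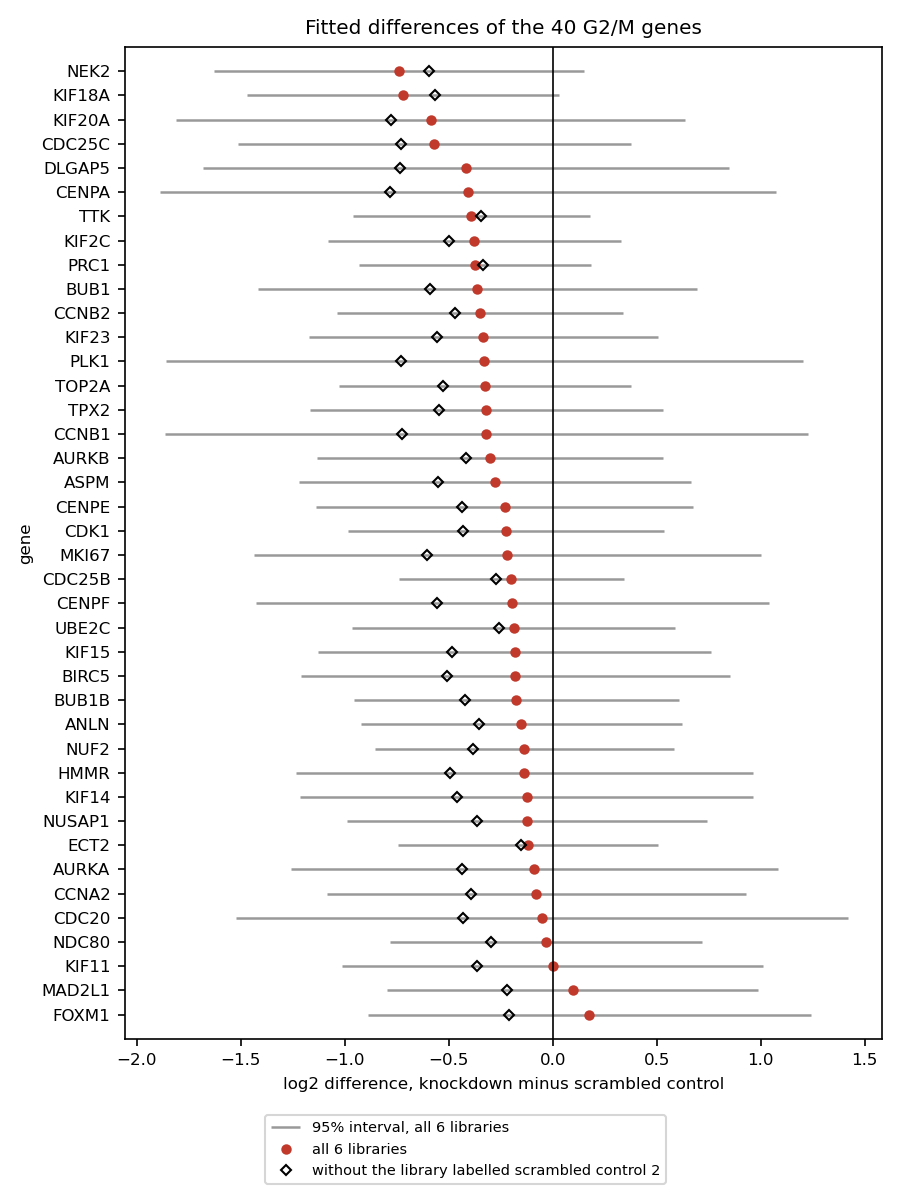
Fitted log2 differences of knockdown minus scrambled control for the 40 genes, sorted by size; circles are the fit of all 6 libraries with its 95% interval as a bar, and open diamonds the fit without the library labelled scrambled control 2. Every bar crosses 0, 38 circles lie left of 0, and all 40 diamonds lie left of 0.

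Set out library by library, the levels did not divide by hairpin. The 40 genes summed to 2497, 2258 and 4499 CPM in knockdown 1 to 3, and to 3955, 2195 and 4698 CPM in the libraries labelled scrambled control 1 to 3. In this sum knockdown 3 was close to scrambled control 3, and the library labelled scrambled control 2 was close to knockdown 1 and 2. Over all tested genes the latter was not so. Log2 CPM of that library correlated with knockdown 1 to 3 at r = 0.884, 0.909 and 0.880, where scrambled control 1 and 3 had at least 0.952. Against each gene's mean over the 6 libraries, the median deviation was −0.36, −0.47 and 0.46 log2 units in knockdown 1 to 3 and 0.26, −0.54 and 0.57 in scrambled control 1 to 3. For all tested genes the same medians lay between −0.021 and 0.019.

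In 34 of the 40 genes the 3 lowest libraries were knockdown 1, knockdown 2 and the library labelled scrambled control 2, an order that held in 8.44% of all tested genes. It was noticed in the values and has no test. The exceptions were NEK2, KIF18A, TTK, PRC1, ECT2 and UBE2C. The lowest level of a gene was in knockdown 2 for 16 genes, in the library labelled scrambled control 2 for 14 and in knockdown 1 for 10. Of all 13668 tested genes, the lowest level was in these libraries for 1767, 5010 and 2403. The highest was in scrambled control 3 for 28 of the 40 genes and for 2060 of all tested genes. The library labelled scrambled control 2 was the highest for 4 of the 40 and for 4705 of all tested genes. Between its lowest and its highest library a gene differed by 1.54-fold for CDC25B up to 5.19-fold for PLK1, with a median of 2.66-fold. Knockdown 3 held the least PRMT5 and the second highest sum of the 40 genes. In the other 5 libraries PRMT5 and the sum ran in the same order, from the library labelled scrambled control 2 at the low end through knockdown 2, knockdown 1 and scrambled control 1 to scrambled control 3. That order was noticed in the values, holds only with knockdown 3 set aside, and has no test. The share of tested genes that follow it was not counted.

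**Figure D2:**
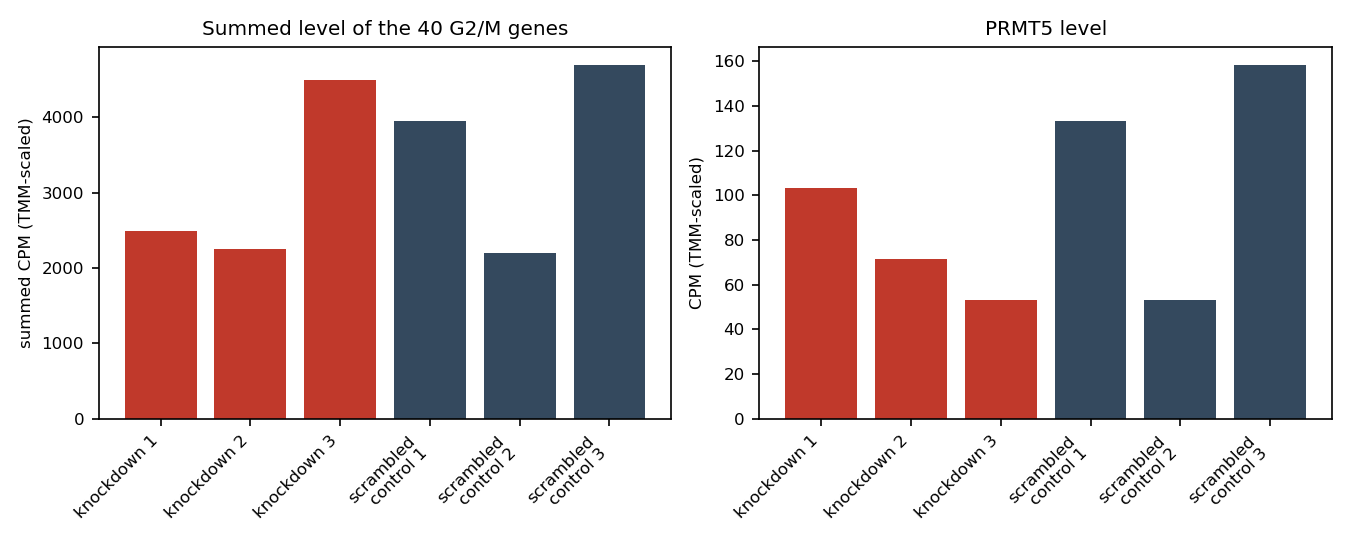
Summed TMM-scaled CPM of the 40 genes (left) and PRMT5 CPM (right) in each library, knockdown libraries in red and scrambled controls in blue. Knockdown 3 held 4499 CPM of the 40 genes with 52.99 CPM of PRMT5, and the library labelled scrambled control 2 held 2195 CPM with 53.2 CPM of PRMT5.

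**Figure D3:**
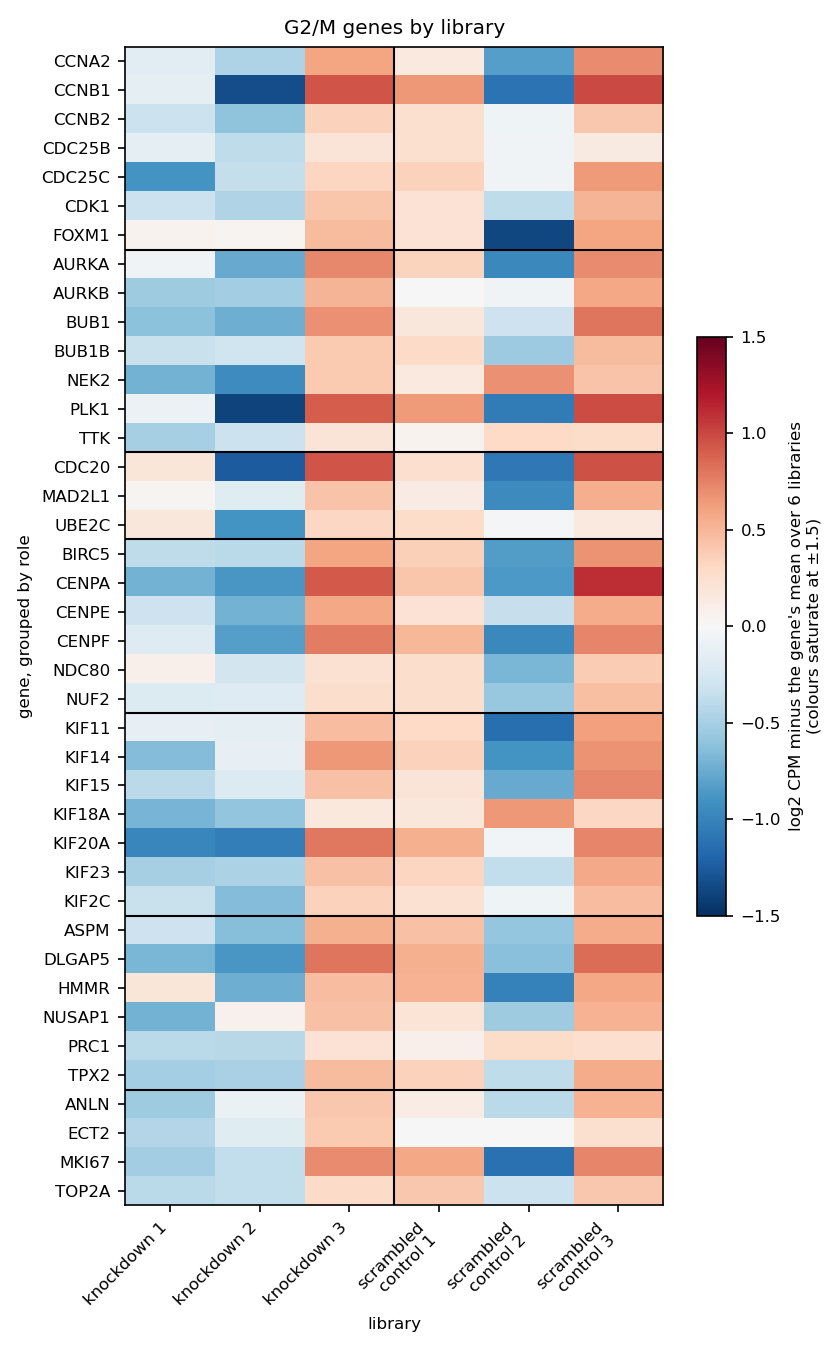
Log2 CPM of each gene minus its mean over the 6 libraries, genes in rows grouped by role and libraries in columns, red above and blue below the mean. Knockdown 1, knockdown 2 and the library labelled scrambled control 2 are mostly blue, apart from NEK2, KIF18A, TTK and PRC1, which are red in the last of these.

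The library labelled scrambled control 2 held less than both other controls for 35 of the 40 genes, with a median log2 difference of −0.91 from the mean of controls 1 and 3. Below that mean itself were 36 of the 40 genes and 6966 of all 13668 tested genes. NEK2, KIF18A, TTK and PRC1 were above both other controls there, and ECT2 lay between them. Proximal promoters of both kinds of gene are shown so that the elements known to time G2/M transcription can be compared. The 6 were picked after the values were seen. In the library labelled scrambled control 2, CCNB2, PLK1 and MKI67 were below both other controls, and NEK2, KIF18A and PRC1 above both. From the mean of controls 1 and 3 they differed there by −0.39, −1.87, −1.77, 0.40, 0.41 and 0.12 log2 units, in that order. The difference was thus small for PRC1, and CCNB2 there was above knockdown 1 and 2. Each run is the 150 bases before the RefSeq start on build GRCh38.p14, 5′ to 3′ on the gene's strand. Capitals mark the core TTTGAA of the cell cycle genes homology region or the CCAAT box bound by NF-Y, on either strand. In MKI67 a TTTGAA and a reversed CCAAT share bases.

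CCNB2, chr15:59104996-59105145, plus strand: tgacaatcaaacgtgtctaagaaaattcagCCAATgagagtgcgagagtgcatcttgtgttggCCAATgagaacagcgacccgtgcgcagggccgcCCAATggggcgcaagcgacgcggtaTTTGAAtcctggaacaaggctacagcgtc
PLK1, chr16:23678739-23678888, plus strand: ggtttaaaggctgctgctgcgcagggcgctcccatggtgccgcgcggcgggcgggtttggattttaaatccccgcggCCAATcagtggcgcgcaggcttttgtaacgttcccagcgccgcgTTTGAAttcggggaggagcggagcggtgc
MKI67, chr10:128126424-128126573, minus strand: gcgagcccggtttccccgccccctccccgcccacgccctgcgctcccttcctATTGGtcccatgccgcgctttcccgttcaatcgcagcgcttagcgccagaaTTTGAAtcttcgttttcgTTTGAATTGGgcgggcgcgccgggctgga
NEK2, chr1:211675622-211675771, minus strand: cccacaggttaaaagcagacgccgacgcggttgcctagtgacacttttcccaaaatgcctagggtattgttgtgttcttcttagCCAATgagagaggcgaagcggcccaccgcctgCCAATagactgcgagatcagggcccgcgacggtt
KIF18A, chr11:28108157-28108306, minus strand: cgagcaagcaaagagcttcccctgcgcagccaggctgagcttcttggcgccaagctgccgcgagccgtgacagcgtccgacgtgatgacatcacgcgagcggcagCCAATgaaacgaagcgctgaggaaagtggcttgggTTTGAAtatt
PRC1, chr15:90994536-90994685, minus strand: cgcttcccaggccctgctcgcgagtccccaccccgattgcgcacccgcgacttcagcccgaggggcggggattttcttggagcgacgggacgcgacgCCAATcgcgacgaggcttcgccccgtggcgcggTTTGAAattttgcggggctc

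The printed stretch held 1 TTTGAA and 3 CCAAT in CCNB2, 1 of each in PLK1, KIF18A and PRC1, and 2 of each in MKI67. NEK2 held 2 CCAAT and no TTTGAA. Both kinds of gene thus carried CCAAT, and TTTGAA was in 5 of the 6. Over windows of 250 bases before to 50 after the start, which RefSeq promoters gave for 34 of the 40 genes, TTTGAA was found on either strand in 25 genes (73.5%) and CCAAT in 27 (79.4%). Of 27305 genes with such a window, 18.2% held TTTGAA and 39.7% held CCAAT. Both were present in 20 of the 34 genes and in 8.37% of all. These are matches of letters and no measurement of binding.

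Among the genes of the cyclin and CDK1 switch, 6 of 7 had a log2 difference below 0, with a median of −0.23. CDK1, the kinase itself, was at 110, 101 and 184 CPM in knockdown 1 to 3 and at 161, 106 and 195 CPM in scrambled control 1 to 3. The groups overlapped, and the log2 difference was −0.22 (SE 0.33; edgeR adjusted p = 0.926). CDK1 was also the gene most like the average of the other 39, with r = 0.999 over the 6 libraries. CCNB1, the cyclin of mitotic entry, was at 54.0, 23.8 and 115 CPM in knockdown 1 to 3 and at 94.4, 27.8 and 119 CPM in scrambled control 1 to 3. Its 2 lowest values were in the libraries numbered 2 of both groups, and its log2 difference of −0.32 had an SE of 0.66. CCNB2, a second B-type cyclin, spread less, at 39.2, 32.1 and 62.0 CPM in knockdown 1 to 3 and at 57.9, 46.7 and 65.0 CPM in scrambled control 1 to 3. CDC25C, a phosphatase that removes the inhibitory phosphates of CDK1, had the smallest p of this role, at 3.29, 4.86 and 7.84 CPM in knockdown 1 to 3 and at 7.94, 6.03 and 9.74 CPM in scrambled control 1 to 3. It was the least abundant of the 40, and its log2 difference was −0.57 (SE 0.40; edgeR adjusted p = 0.926). FOXM1, the transcription factor of many genes in this set, went the other way in the fit, with a log2 difference of 0.18 (SE 0.46). It was at 54.8, 54.6 and 73.5 CPM in knockdown 1 to 3 and at 61.7, 20.4 and 79.7 CPM in scrambled control 1 to 3. Only the library labelled scrambled control 2 lay below the knockdown libraries, and the difference was −0.21 once it was left out.

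All 7 mitotic kinases had a log2 difference below 0, with a median of −0.33. NEK2, which acts in centrosome separation, had the second smallest p of the 40. It was at 19.9, 17.0 and 42.8 CPM in knockdown 1 to 3 and at 36.1, 52.7 and 44.1 CPM in scrambled control 1 to 3. Knockdown 1 and 2 were below every control, knockdown 3 was between them, and the log2 difference was −0.74 (SE 0.38, 95% confidence interval −1.63 to 0.15; edgeR adjusted p = 0.926). TTK, the checkpoint kinase also called MPS1, was at 45.2, 51.2 and 73.3 CPM in knockdown 1 to 3 and at 66.2, 78.5 and 77.8 CPM in scrambled control 1 to 3. Its log2 difference was −0.39 (SE 0.24; edgeR adjusted p = 0.926), and knockdown 3 again lay within the controls. PLK1, a kinase of mitotic entry and spindle assembly, had the highest level per kilobase of the kinases and the widest range of the 40. It was at 51.4, 20.9 and 103 CPM in knockdown 1 to 3 and at 85.5, 26.3 and 108 CPM in scrambled control 1 to 3, and its log2 difference of −0.33 had an SE of 0.66. AURKA and AURKB, the Aurora kinases of the centrosome and of the inner centromere, and BUB1 and BUB1B, kinetochore checkpoint proteins, had p-values of 0.42 to 0.87 in edgeR.

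The genes of the checkpoint and of anaphase onset were divided, 2 of 3 below 0. CDC20, which activates the anaphase-promoting complex, was at 65.0, 24.1 and 110 CPM in knockdown 1 to 3 and at 68.3, 27.3 and 111 CPM in scrambled control 1 to 3. Each knockdown library was close to the control with its number, and the log2 difference was −0.052 (SE 0.63). UBE2C, the ubiquitin-conjugating enzyme of that complex, was at 32.3, 15.4 and 35.7 CPM in knockdown 1 to 3 and at 34.8, 28.3 and 31.8 CPM in scrambled control 1 to 3. Knockdown 2 alone was low, and the log2 difference was −0.19 (SE 0.33). MAD2L1, the checkpoint protein that holds CDC20, was at 74.4, 63.7 and 97.1 CPM in knockdown 1 to 3 and at 78.2, 37.1 and 105 CPM in scrambled control 1 to 3. Its log2 difference of 0.10 (SE 0.38) became −0.22 without the library labelled scrambled control 2.

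All 6 centromere and kinetochore genes were below 0 in the fit, with a median of −0.19. CENPF, a kinetochore protein of the outer plate and the most abundant of them, was at 295, 189 and 570 CPM in knockdown 1 to 3 and at 475, 171 and 558 CPM in scrambled control 1 to 3. Knockdown 3 was the highest of all 6 libraries, and the log2 difference was −0.19 (SE 0.53). CENPA, the centromeric histone, was at 7.68, 6.80 and 23.9 CPM in knockdown 1 to 3 and at 16.8, 6.87 and 27.3 CPM in scrambled control 1 to 3. Its log2 difference was −0.41 (SE 0.63; edgeR adjusted p = 0.926), the smallest p of the role. CENPE, a kinetochore motor, NDC80 and NUF2, subunits of the microtubule-binding complex, and BIRC5, which encodes survivin, had overlapping groups, with knockdown 3 above knockdown 1 and 2 for each.

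All 7 kinesin genes were below 0, with a median of −0.33. KIF18A, a motor that limits the movement of chromosomes at the metaphase plate, had the smallest p of the 40. It was at 8.41, 8.99 and 15.25 CPM in knockdown 1 to 3 and at 15.32, 21.5 and 17.0 CPM in scrambled control 1 to 3. The groups did not overlap, by a margin of 15.25 against 15.32 CPM, which closed under 3 of the alternatives. Its log2 difference was −0.72 (SE 0.32, 95% confidence interval −1.47 to 0.029), with an unadjusted p of 0.0574 and an adjusted p of 0.926 in edgeR. KIF20A, a motor of the central spindle in late mitosis, was at 14.0, 13.4 and 48.0 CPM in knockdown 1 to 3 and at 40.2, 26.9 and 46.2 CPM in scrambled control 1 to 3. Knockdown 1 and 2 were below all controls and knockdown 3 above them, and the log2 difference was −0.59 (SE 0.52). KIF2C, a microtubule depolymerase and the kinesin gene with the highest level per kilobase, was at 63.5, 50.8 and 102 CPM in knockdown 1 to 3 and at 93.7, 76.7 and 110 CPM in scrambled control 1 to 3, a log2 difference of −0.38 (SE 0.30). KIF11, the motor that separates the spindle poles, averaged 87.6 ± 22.0 CPM with the PRMT5 hairpin and 87.6 ± 45.5 CPM with the scrambled hairpin (SD, n = 3 each).

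Of the spindle assembly genes, all 6 were below 0, with a median of −0.30. PRC1, which bundles antiparallel microtubules in the midzone, was at 81.8, 81.0 and 125 CPM in knockdown 1 to 3 and at 114, 131 and 129 CPM in scrambled control 1 to 3. Knockdown 3 lay between the controls, and the log2 difference was −0.37 (SE 0.24; edgeR adjusted p = 0.926). NUSAP1, a spindle-associated protein that binds microtubules, was at 67.7, 116 and 150 CPM in knockdown 1 to 3 and at 127, 76.6 and 159 CPM in scrambled control 1 to 3, a log2 difference of −0.12 (SE 0.37). TPX2, an activator of AURKA, DLGAP5, HMMR and ASPM had overlapping groups too, DLGAP5 averaging 34.2 ± 23.8 CPM with the PRMT5 hairpin and 45.6 ± 20.6 CPM with the scrambled hairpin (SD, n = 3 each).

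The 4 genes of chromosome structure and cytokinesis were all below 0, with a median of −0.18. TOP2A, the topoisomerase that untangles sister chromatids, was at 289, 295 and 466 CPM in knockdown 1 to 3 and at 505, 306 and 505 CPM in scrambled control 1 to 3. Without the library labelled scrambled control 2 its groups did not overlap, and with it they did. The log2 difference was −0.33 (SE 0.30; edgeR adjusted p = 0.926). MKI67, whose protein coats mitotic chromosomes and is the usual stain for cycling cells, was at 170, 190 and 398 CPM in knockdown 1 to 3 and at 364, 112 and 405 CPM in scrambled control 1 to 3, a log2 difference of −0.22 (SE 0.52). ANLN and ECT2, which act at the cleavage furrow, averaged 75.8 ± 24.7 and 34.8 ± 10.7 CPM with the PRMT5 hairpin and 84.1 ± 26.4 and 37.8 ± 3.69 CPM with the scrambled hairpin (SD, n = 3 each).

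Per kilobase of exon, CDK1 and TOP2A had the highest levels over the 6 libraries, at 70.1 and 68.5 CPM per kilobase. NUSAP1 followed at 47.3, CDC20 at 37.0 and CENPF at 36.4 CPM per kilobase. The lowest were CENPE at 4.40, KIF18A at 4.04 and CDC25C at 2.58 CPM per kilobase, and the median was 18.1. The counts behind these values ran from 62.8 for CDC25C in knockdown 1 to 10769 for CENPF in scrambled control 3.

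Each knockdown library was also set against the control with its number in the titles. Deviations from the group means correlated at 0.127, 0.394 and 0.566 in pairs 1 to 3, and at 0.164 for knockdown 2 with control 1. The match is therefore weak for pair 1. In pair 1 all 40 genes were lower in the knockdown library, where 50.4% of tested genes were, with a median log2 difference of −0.61 and a range of −1.51 for KIF20A to −0.071. In pair 2, 24 genes were lower and 16 higher, where 47.9% of tested genes were lower, with a median of −0.083 and a range of −1.63 for NEK2 to 1.41 for FOXM1. In pair 3, 33 genes were lower, where 50.4% of tested genes were, with a median of −0.081, and 38 of the 40 differences were within 0.2 log2 units of 0. The share of all tested genes within 0.2 was not counted. Log2 CPM over all tested genes correlated at r = 0.969, 0.909 and 0.995 in pairs 1 to 3, so pair 3 was the most alike over all genes too. PRMT5 had log2 differences of −0.36, 0.43 and −1.58 in pairs 1 to 3. Pair 3 thus had the largest PRMT5 difference and the narrowest range of the 40 genes, −0.31 to 0.17, and in pair 2 the control library is the one whose PRMT5 goes against its label. In all 3 pairs 19 genes were lower, against 14.1% of all tested genes.

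When the replicate number entered as a block, the median over the 40 genes was −0.25 and no gene was called. NEK2, KIF18A and KIF20A had unadjusted p-values of 0.0417, 0.0407 and 0.0481 there in edgeR, all lower and each with an adjusted p of 0.709. Across all tested genes 1.79% were lower with an unadjusted p under 0.05 in that fit. NEK2 and KIF18A were lower in all 3 pairs, and KIF20A in the first 2.

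**Figure D4:**
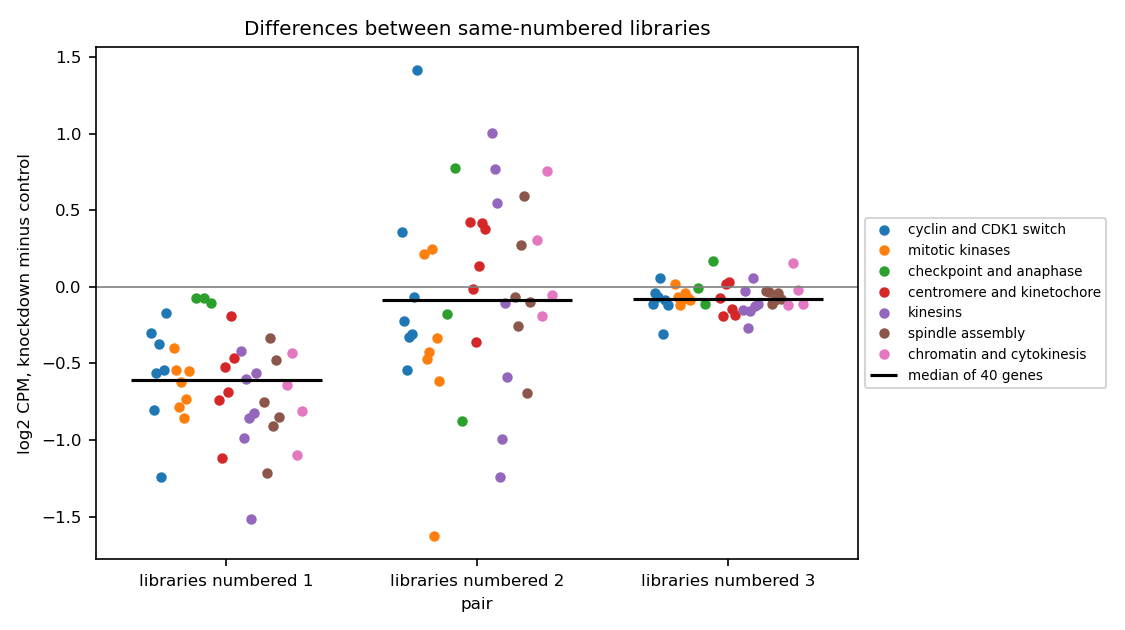
Log2 CPM of each of the 40 genes in a knockdown library minus that in the control with the same number, by pair, coloured by role, with the median as a black line. The medians are −0.61, −0.083 and −0.081, and the points spread widely in the libraries numbered 2 and narrowly in those numbered 3.

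Knockdown 1 and 2 had like sums but differed in which genes were low. CDC20, PLK1, CCNB1 and UBE2C were lower in knockdown 2 than in knockdown 1 by log2 differences of −1.43, −1.29, −1.18 and −1.07, followed by HMMR at −0.92 and AURKA at −0.69. NUSAP1, CDC25C, KIF14 and ANLN were higher in knockdown 2, by 0.77, 0.55, 0.52 and 0.44. For 25 of the 40 genes knockdown 2 was the lower, with a median of −0.089. These are single libraries of 1 group, so the differences have no test.

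Other genes of the same phase were also mostly lower in the fit. They were measured in the same libraries and listed with earlier results of these data known, so they are no independent check. Of 60 further G2/M and mitotic genes, 59 were tested, and 42 had a log2 difference below 0 and 17 above. Their median was −0.12, and 50.1% of all tested genes were below 0. In pair 2, 19 of the 59 were lower, with a median of 0.19, where 24 of the 40 were lower, with a median of −0.083. None of the 59 was called or had an unadjusted p under 0.05 in edgeR. Without the library labelled scrambled control 2 all 59 were below 0, with a median of −0.33. PSRC1, SPAG5 and G2E3 had the smallest p-values, with log2 differences of −0.72 (SE 0.40), −0.62 (SE 0.38) and −0.29 (SE 0.20), and PSRC1 was at −0.33 without that library. G2E3, a ubiquitin ligase named for its G2/M expression, was at 31.8, 28.7 and 34.9 CPM in knockdown 1 to 3 and at 39.6, 37.0 and 40.3 CPM in scrambled control 1 to 3, and its groups did not overlap. It was the only gene of the 59 with all knockdown libraries below the controls, where 3.1% of tested genes had this. SPAG5, which encodes the spindle protein astrin, was at 43.6, 49.5 and 115 CPM in knockdown 1 to 3 and at 92.9, 111 and 114 CPM in scrambled control 1 to 3.

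Regulators of CDK1 and of the MuvB, DREAM and NF-Y factors were divided, 7 of 19 below 0 and 12 above, with a median of 0.021 and none called in edgeR or at an unadjusted p under 0.05. RBL2, the pocket protein p130 of the DREAM complex, was at 136, 148 and 160 CPM in knockdown 1 to 3 and at 177, 226 and 165 CPM in scrambled control 1 to 3. Its groups did not overlap, and its log2 difference was −0.36 (SE 0.21; edgeR adjusted p = 0.926). No other gene of the 19 had groups that did not overlap, and 3.1% of tested genes had all knockdown libraries below the controls. E2F4 and RBBP4, other subunits of DREAM, had log2 differences of 0.51 (SE 0.37) and 0.30 (SE 0.22). Leaving out the library labelled scrambled control 2 put 13 of the 19 below 0, with a median of −0.040, and gave RBL2 −0.21, E2F4 0.21 and RBBP4 0.19.

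G1/S and DNA replication genes were set beside the mitotic genes because both lists mark cycling cells. Of 28 tested, 5 had a log2 difference below 0 and 23 above, with a median of 0.22 and none called in edgeR or at an unadjusted p under 0.05. CDT1, PCNA and E2F1 had −0.50, 0.53 and 0.36, with SEs of 0.27, 0.36 and 0.33. Leaving out the library labelled scrambled control 2 put 24 of the 28 below 0, with a median of −0.14, and gave CDT1 −0.28, PCNA 0.22 and E2F1 0.11. In that library the G1/S list lay at a median of −1.57 from the mean of controls 1 and 3, against −0.91 for the 40 mitotic genes. In knockdown 2 the 2 lists parted: the median deviation from the 6-library mean was 0.32 for G1/S genes and −0.47 for the 40 genes. In the other 5 libraries both lists deviated in the same direction. The difference between the lists was not tested.

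**Figure D5:**
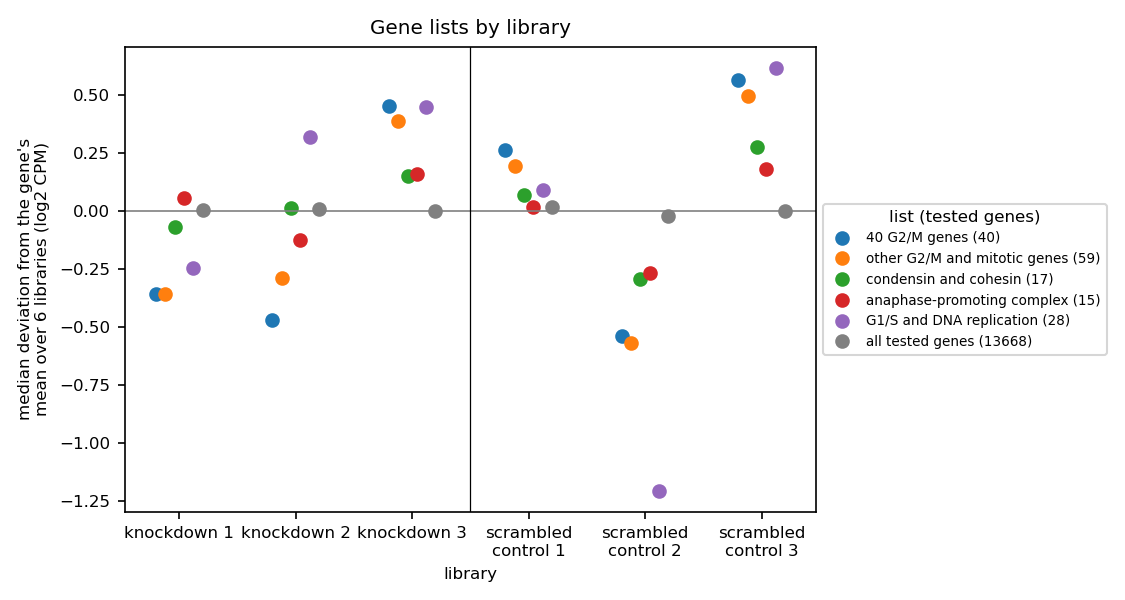
Median deviation of each gene list from its genes' mean over the 6 libraries, in log2 CPM, by library. The 40 G2/M genes and the 59 other mitotic genes lie together in every library, G1/S genes lie at 0.32 in knockdown 2 and −1.20 in the library labelled scrambled control 2, and all tested genes stay near 0.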

How the data were processed

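Poly(A) RNA-seq of MV4-11 cells was deposited as estimated counts per gene, 1 table per library. The deposited expected counts sum to a different total in each library. Tools listed, without their roles, per the submitters' processing notes are CASAVA 1.9, TopHat2 2 and edgeR, and the build listed is hg19. How genes were counted, on which annotation and whether by strand is not given in the sources used here, so overlapping, antisense or near-identical genes may share reads.

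Counts were rounded to whole numbers. Genes kept by filterByExpr (minimum count 10, by group) were scaled by TMM and fitted by the quasi-likelihood method of edgeR 4.0.16 (R 4.3.3; functions glmQLFit and glmQLFTest) with group as the only term, two-sided, with Benjamini-Hochberg adjustment over all tested genes and a threshold of 0.05. SEs come from the quasi-likelihood F value. Log2 CPM had a prior count of 2. The scripts were tested on simulated data. An exact permutation of 3 against 3 libraries cannot go below 0.1. DESeq2 1.42.0, limma-voom (limma 3.58.1), other scalings and filters, a replicate block and leaving out libraries were alternatives. Exon lengths are the union of GENCODE v29 basic exons matched by symbol.

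The titles number both groups 1 to 3 and state no shared day. Deviations from the group means correlated at 0.127, 0.394 and 0.566 for same-numbered libraries. Each was above 0.1, so these libraries were also compared as pairs and entered as the replicate block. The main edgeR fit did not use the pairs. Knockdown 2 with control 1 had 0.164, above the 0.127 of the libraries numbered 1, so the values do not single out that pair.

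The members and lists were chosen with earlier results of these data known. Genes given in full were, by role, those with the highest level per kilobase and the smallest p, the 3 smallest p-values per direction (2 genes were higher), PRMT5, and the 3 smallest p-values of each other list. CCNB1, CCNB2, MKI67, KIF20A and KIF11 were added after their values were seen, as were members given as means or as differences between libraries.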

Additional observations from a re-analysis of the deposited data

How the results depend on the processing

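In edgeR, DESeq2 and limma-voom 0 genes were called under every alternative run, with 33 to 1307 of all tested genes at an unadjusted p under 0.05. The median log2 difference of the 40 genes was −0.20 to −0.25 under the other scalings, filters and models, −0.25 with the replicate block, −0.31 without both libraries numbered 2, and −0.62 to 0.017 with 1 library left out. Members at an unadjusted p under 0.05 numbered 0 in the edgeR fit, 1 in DESeq2, 1 in limma-voom, 3 with the replicate block and 0 to 9 with 1 library left out, the 9 being without knockdown 3, where 438 of 13941 tested genes were, 251 of them higher. Members whose groups do not overlap numbered 1 in the edgeR fit, 0 under RLE scaling, 0 under total counts and 0 with no filter on low counts. They numbered 6 without both libraries numbered 2, where 2684 of 13625 tested genes did not overlap, 1335 of them lower. With 1 library left out they numbered 1 to 16. The 16 came without knockdown 3, where 2965 of 13941 tested genes did not overlap, 1448 of them lower. All of the 6 and of the 16 were lower. Fewer libraries per group make separation easier. Leaving out 1 library turned the direction of 1 to 18 of the 40 genes, most without scrambled control 3. Over those fits the log2 difference ran from −1.05 to 0.078 for CCNB1, −0.63 to 0.48 for CDC20, −1.23 to 0.11 for CENPA and −0.73 to 0.12 for CENPF. It ran from −0.21 to 0.57 for FOXM1, −0.22 to 0.44 for MAD2L1, −0.71 to 0.086 for MKI67, −0.40 to 0.13 for NUSAP1, −1.03 to 0.074 for PLK1, −0.41 to 0.10 for UBE2C and −0.45 to 0.050 for CDC16. Without both libraries numbered 2 the difference was −0.14 for FOXM1, −0.095 for MAD2L1, 0.028 for UBE2C, 0.069 for CDC16, 0.11 for NIPBL and −0.039 for E2F1. The cause was not tested. The biological coefficient of variation was 0.373, which limits what 3 libraries per group can show.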

Other observations

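Subunits of the anaphase-promoting complex, 15 tested, were divided, 8 with a log2 difference below 0 and 7 above, with a median of −0.0084. ANAPC13, ANAPC4 and CDC16 had the smallest p-values, with log2 differences of 0.42 (SE 0.25), −0.25 (SE 0.20) and −0.30 (SE 0.29). Condensin and cohesin genes were 7 below and 10 above 0 of 17 tested (median 0.026), with NCAPD2, a condensin subunit, at −0.31 (SE 0.25), STAG1, a cohesin subunit, at 0.41 (SE 0.38) and NIPBL, the cohesin loader, at −0.29 (SE 0.27). Tubulin and centrosome genes were 9 below and 5 above 0 of 14 tested (median −0.064). CEP152, a centriole duplication gene, was at 44.6, 39.2 and 60.3 CPM in knockdown 1 to 3 and at 57.2, 109 and 68.8 CPM in the libraries labelled scrambled control 1 to 3. Its log2 difference was −0.70 (SE 0.31). TUBG1 and PCNT, of the centrosome, had log2 differences of 0.22 (SE 0.29) and 0.20 (SE 0.26). Leaving out the library labelled scrambled control 2 put 9 of 15 anaphase-promoting complex genes below 0 (median −0.13), 15 of 17 condensin and cohesin genes (median −0.14) and 11 of 14 tubulin and centrosome genes (median −0.16). Single differences were then 0.28 for ANAPC13, 0.050 for CDC16, 0.080 for STAG1, −0.057 for NIPBL, −0.39 for CEP152, 0.045 for TUBG1 and 0.0058 for PCNT. No gene of these 3 lists was called in edgeR or had an unadjusted p under 0.05.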
